A study of Beta vulgaris with 12 samples.

Results

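The 47 genes described here are annotated as enzymes that make, activate or degrade cytokinins or as two-component phosphorelay proteins. Such a relay carries the cytokinin signal, but the genes include 5 histidine kinases that are not of the cytokinin receptor type. All 47 were found among 28320 genes of sugar beet (Beta vulgaris) roots by their names in the annotation of the expression table, with no use of the expression values. A gene was taken when its description contained cytokinin dehydrogenase, cytokinin riboside, isopentenyltransferase, histidine-containing phosphotransfer, histidine kinase or two-component response regulator, while the "regulator-like" clock proteins were left out. RNA was sequenced from 4 groups of seedling roots, with 3 libraries per group from separate biological replicates. S_1 and S_7 were roots of seedlings in nutrient solution with salt, a mixture of NaCl and Na2SO4 in a 2:1 molar ratio with 300 mM Na+, on day 1 and on day 7. CK_1 and CK_7 were roots kept on nutrient solution without the salt for the same times. All seedlings were 4 weeks old by the labels and came from 1 commercial cultivar by the methods. The methods describe a stepwise increase of Na+ before the final concentration and do not say from which step the days were counted. Values are FPKM, that is fragments divided by transcript length and by the mapped fragments of the library, so that levels of different genes can be compared per length.

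Cytokinins are adenine-derived hormones that promote cell division in shoots and restrain it in the root meristem, and roots are a main site of their synthesis. Isopentenyltransferases (IPT) join a prenyl side chain to an adenine nucleotide, LOG enzymes release the active base from the nucleotide, and cytokinin dehydrogenases (CKX) cleave the side chain irreversibly. The hormone is sensed by receptor-type histidine kinases, which pass a phosphoryl group to histidine-containing phosphotransfer proteins (AHP in Arabidopsis). These enter the nucleus and activate type-B response regulators, which are transcription factors. Type-A response regulators lack the DNA-binding part, are quickly induced by cytokinin in Arabidopsis, and restrain the pathway, so that their transcripts are widely used as a readout of the signal. Functions named below are those known from Arabidopsis, and none of them was measured here.

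Each library had an FPKM total of 382847 to 423530, and 23688 to 24234 genes were above 0. The relative depth estimated from the lowest values ranged from 0.908 to 1.275, with the first CK_1 library set to 1, although only 14.5% to 24.6% of the genes compared gave the estimate. Log-scale correlations between libraries of a group, over genes with a mean of at least 1 FPKM, lay between 0.822 and 0.877. Replicate 2 of CK_1 stood apart, with the lowest mean correlation with its own group (0.832). Among genes with a CK_1 mean of at least 1 FPKM, it had the highest value of the 3 CK_1 libraries in 58.2%. It also held the highest CK_1 value in 18 of the 33 members above that level. The 26 root marker genes (Casparian strip proteins, SHORT-ROOT, SCARECROW and nitrate transporters) summed to 273 to 477 FPKM in S_1, 483 to 547 in CK_1, 273 to 590 in S_7 and 390 to 409 in CK_7, and all libraries are labelled as fresh roots. The 18 green shoot markers were present too and differed by day, at 37.2 to 264 FPKM in S_1, 54.6 to 145 in CK_1, 8.91 to 16.7 in S_7 and 10.1 to 22.7 in CK_7. In whole roots, fewer cells of a type and less RNA per cell cannot be told apart.

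Of the 47 members, 3 were isopentenyltransferases, 8 LOG enzymes, 6 cytokinin dehydrogenases, 2 receptor-type histidine kinases, 5 other histidine kinases, 6 phosphotransfer proteins and 17 response regulators. By name or by KEGG orthology, 8 of the regulators were type A and 9 type B. The mean FPKM over the 12 libraries was at least 1 in 32 members and under 0.1 in 6, and 12 members were listed at 0 in some library. The 12 members that reached 20 FPKM in some library had no value of 0 in another, whereas 542 of the 6009 genes of the whole table that reached 20 FPKM did. The annotation joins 2 genes, LOC104905482 and LOC104905484, in 1 of the entries (named ARR10-like), and its value cannot be assigned to either. Reads of near-identical copies may be split between genes, and no correction for this was possible from FPKM.

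The highest member by its mean over all libraries was a gene for cytokinin degradation. Cytokinin dehydrogenase 6 (CKX6, LOC104887446) averaged 96.2 FPKM over the 12 libraries, although ARR2 was above it in S_7 (68.9 against 37.7 FPKM on average). It was followed by the type-B regulator ARR2 (LOC104887855) at 53.1 FPKM, the type-A regulators ARR5 (LOC104898023) at 39.9 and ORR9 (LOC104887527) at 35.4, the receptor histidine kinase 3 (LOC104897547) at 26.7 and a phosphotransfer protein 1-like gene (LOC104894012) at 26.2. Ranges over the libraries overlapped between neighbours in this order, with 15.8 to 186.5 FPKM for CKX6, 37.0 to 77.6 for ARR2 and 9.55 to 104.1 for ARR5. Synthesis genes were low by comparison, since the 3 isopentenyltransferases averaged 2.10 FPKM (IPT5, LOC104906803), 0.352 (LOC104896430) and 0.306 (IPT3-like, LOC104898878). Members with almost no transcript in these roots were CKX1-like (LOC104884992), ARR1-like (LOC104906502), histidine kinase 6 (LOC104886098), CKI1 (LOC104894849), LOG3 (LOC104896979) and ORR26-like (LOC104899174), at 0.00249 to 0.0663 FPKM on average. CKI1 is known for its role in the female gametophyte of Arabidopsis.

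The effect of salt on day 1 was read from S_1 against CK_1. Transcripts of 5 members were lower in S_1 at an unadjusted P under 0.05 in limma and a log2 fold change below -1 or above 1 on the log2(FPKM + 1) scale, and none was higher. These thresholds are those of the study's methods, which applied them to Ballgown fits. With a linear model after Ballgown 4 of the 5 calls remained and CKX3 was lost. The 5 genes were the type-A regulators ARR6, ARR8 and ORR9 (LOC104887524), the activating enzyme LOG4 and the degrading enzyme CKX3. The 5 calls were 11.1% of the 45 members tested, against 5.99% called among all 27073 genes tested (3.44% higher and 2.55% lower). No member passed an adjusted p of 0.05, a level that 0.772% of all genes passed, and 10 members had an unadjusted P under 0.05, or 22.2% against 15.6% of all genes. The 3 libraries of S_1 did not overlap those of CK_1 in 12 members (26.7%), close to the 21.8% among all genes. The median log2 fold change of the members was -0.05, and that of all genes was 0.00.

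ARR6 (LOC104885389) had the lowest P of the members in this comparison. It stood at 1.42, 1.75 and 1.57 FPKM in S_1, against 18.9, 11.4 and 7.28 FPKM in CK_1. All salt libraries were thus below all control libraries, and the S_1 values lay close together. The log2 fold change was -2.30 ± 0.35 (SE), with an adjusted p of 0.0618 in limma, and it stayed between -2.61 and -1.98 and called when any 1 library was left out.

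ARR8 (LOC104889461) reached 9.04, 9.43 and 5.04 FPKM in S_1, against 16.6, 35.0 and 13.1 FPKM in CK_1. The groups did not overlap, with a log2 fold change of -1.27 ± 0.42 (SE) and an adjusted p of 0.231 in limma. Without replicate 2 of CK_1, which held its highest value, the log2 fold change was -0.88 and the call was lost. It was also lost without replicate 3 of S_1 (-1.02, with P above 0.05).

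ORR9 (LOC104887524) was a weakly expressed gene, listed at 0, 0.0319 and 0.126 FPKM in S_1, against 2.55, 0.850 and 1.32 FPKM in CK_1. Every S_1 value was below every CK_1 value, at a log2 fold change of -1.24 ± 0.25 (SE) and an adjusted p of 0.104 in limma. Without replicate 1 of CK_1 the log2 fold change was -0.98, just short of the criterion. In the RefSeq annotation of the EL10.2 assembly, which is not known to be the one behind the table, LOC104887524 lies on chromosome 2 near 2 other members. LOC104887527 (ORR9) and LOC104887526 (ORR10) are direct neighbours there, and 1 gene separates LOC104887526 from LOC104887524.

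These 3 neighbouring type-A genes differed in level and in their values under salt. ORR10 (LOC104887526) had 0.0937, 1.95 and 0.0982 FPKM in S_1, against 3.16, 1.37 and 1.65 in CK_1, where replicate 2 of S_1 lay among the controls and no call was made (adjusted p = 0.401 in limma). ORR9 (LOC104887527), the strongly expressed one, had 24.1, 24.9 and 18.01 FPKM in S_1, against 12.3, 89.7 and 5.55 FPKM in CK_1. Its control libraries spread on both sides of the salt libraries, and the one at 89.7 was replicate 2 of CK_1. Without that library LOC104887527 and CKX1 (LOC104889407) became calls with higher values in S_1, while the calls of ARR8 and CKX3 were lost, so that the number of calls stayed at 5 and only 3 genes were shared.

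The other type-A regulators were not called on day 1. ORR9 (LOC104890973) had 1.15, 0.800 and 1.04 FPKM in S_1, against 2.40, 3.36 and 1.89 FPKM in CK_1. The groups did not overlap, but the log2 fold change of -0.81 ± 0.25 (SE, adjusted p = 0.217 in limma) did not reach the criterion. ARR5 had 41.4, 19.8 and 9.55 FPKM in S_1, against 90.6, 28.7 and 16.8 FPKM in CK_1, and this wide overlap left it uncalled. ARR17 (LOC104887166) stayed at or below 0.236 FPKM in all 6 libraries. Over the 8 type-A regulators, 3 were called lower and none higher, beside 2.55% of all genes called lower. Of the 8, 6 had a negative log2 fold change, and the median was -0.89, against 0.00 for all genes. For the 9 type-B regulators no gene was called, and the median was -0.04. The summed FPKM of the type-A genes was 77.3, 58.7 and 35.6 in S_1, against 146.5, 170.5 and 47.8 in CK_1, and these groups overlapped. Of the 146.5, 90.6 came from ARR5, and of the 170.5, 89.7 came from LOC104887527, both uncalled.

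**Figure D1:**
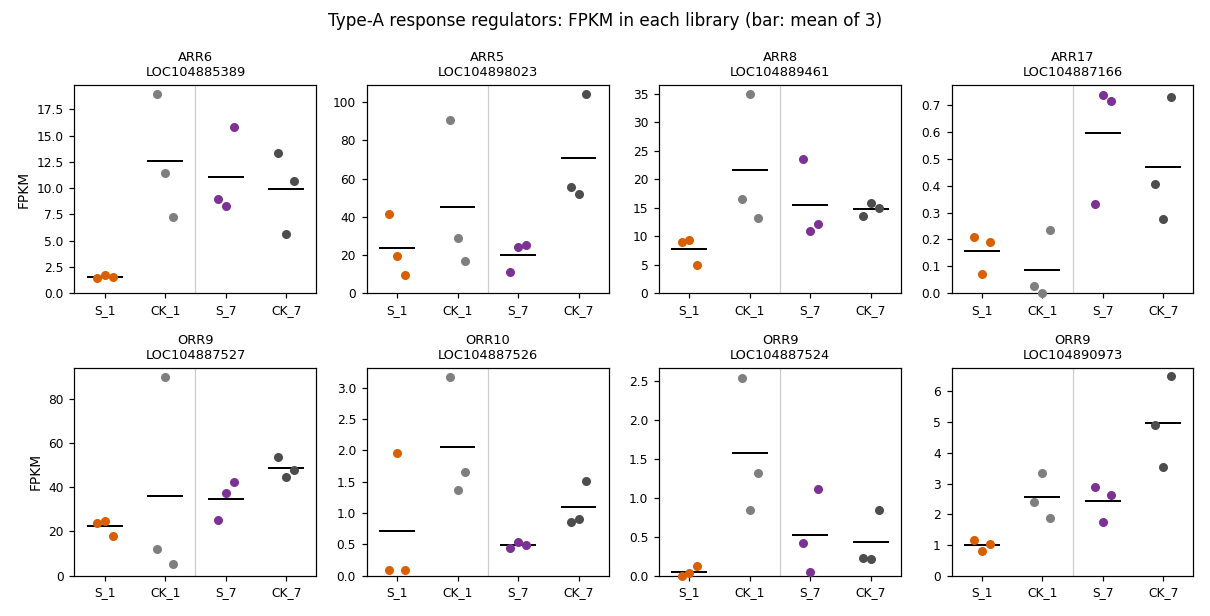
FPKM (linear axis from 0, own scale per panel) of the 8 type-A response regulators in each library of S_1, CK_1, S_7 and CK_7. Points are libraries and black bars are means of 3. The ARR6 points of S_1 lie between 1.42 and 1.75, below all 9 other libraries, and the ARR5 points of S_7 lie below those of CK_7. Replicate 2 of CK_1 is the single high point of LOC104887527 at 89.7.

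LOG4 (LOC104898665) releases active cytokinin from its nucleotide. It was at 0.780, 0.541 and 0.222 FPKM in S_1, against 6.82, 1.24 and 4.77 FPKM in CK_1. The groups did not overlap, although the lowest control, replicate 2, came near the salt libraries. The log2 fold change was -1.64 ± 0.51 (SE) with an adjusted p of 0.215 in limma, and P exceeded 0.05 without replicate 3 of CK_1 or without replicate 3 of S_1 (log2 fold changes of -1.48 and -1.49).

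Among the degrading enzymes, CKX3 (LOC104909026) had 1.35, 1.08 and 0.0678 FPKM in S_1, against 4.21, 3.23 and 1.60 FPKM in CK_1. This was a log2 fold change of -1.15 ± 0.43 (SE, adjusted p = 0.284 in limma) without overlap, and 4 of the 6 fits with a library left out lost the call (CK_1 replicates 1 and 2, S_1 replicates 2 and 3). CKX7 (LOC104886566), a cytosolic form in Arabidopsis, was at 11.1, 14.9 and 18.7 FPKM in S_1, against 23.5, 21.9 and 21.9 FPKM in CK_1. Its groups did not overlap, yet the log2 fold change of -0.59 ± 0.21 (SE, adjusted p = 0.260 in limma) was below the criterion in size. CKX1 had 3.35, 2.62 and 2.32 FPKM in S_1, against 0.681, 2.36 and 0.710 in CK_1, where the high control was replicate 2. The abundant CKX6 had 109.9, 90.8 and 186.5 FPKM in S_1, against 140.9, 45.3 and 103.9 in CK_1. CKX5 (LOC104889207) had 20.1, 12.9 and 28.0 FPKM in S_1, against 22.8, 3.96 and 16.0 in CK_1. Both overlapped in part, with the highest value in S_1 and the lowest in replicate 2 of CK_1.

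The receptor histidine kinase 3 (LOC104897547) had 42.3, 34.3 and 38.9 FPKM in S_1, against 21.5, 22.8 and 29.1 FPKM in CK_1. Every salt library was above every control library, but the log2 fold change of 0.64 ± 0.17 (SE, adjusted p = 0.167 in limma) did not meet the fold criterion. The other receptor, histidine kinase 2 (LOC104883175), had 7.91, 6.61 and 7.00 FPKM in S_1, within the 7.85, 19.3 and 5.97 FPKM of CK_1. IPT3-like (LOC104898878), whose Arabidopsis counterpart responds to nitrate, was listed at 0, 0.0117 and 0.0370 FPKM in S_1, against 0.247, 0.432 and 0.681 in CK_1. Its groups did not overlap (log2 fold change -0.51 ± 0.11 (SE), adjusted p = 0.122 in limma). With a pseudocount of 0.1 in place of 1, which shrinks low genes less, it became a call with lower values in S_1. So did ORR9 (LOC104890973). ARR12 (LOC104901889) became a call with higher values in S_1, at 0.451, 0.162 and 0.146 FPKM, against 0.0645, 0.0557 and 0.0207 in CK_1.

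Beside these day 1 values, the sum of the phloem markers differed with the salt, through 2 of its genes. The 5 markers summed to between 7.62 and 13.2 FPKM in S_1, against 27.4 to 41.0 in CK_1, and 1 of the 5 was called. That gene was a PHLOEM PROTEIN 2-LIKE A1 gene (LOC104882820), with 4.57, 4.48 and 5.29 FPKM in S_1, against 17.3, 20.1 and 21.1 in CK_1. A PHLOEM PROTEIN 2-LIKE A10 gene (LOC104894975) was listed at 0 in all S_1 libraries, against 11.7, 0 and 15.5 FPKM in CK_1, and was not called. A gene annotated as the SUC2 sucrose transporter, a companion cell marker in Arabidopsis, was listed at 0 in 11 of the 12 libraries. The pair of SIEVE ELEMENT OCCLUSION B-like genes overlapped between S_1 and CK_1. The 3 xylem markers summed to 5.32 to 17.8 FPKM in S_1 and 5.46 to 12.8 in CK_1, and the 12 markers of dividing cells to 312 to 352 in S_1 and 253 to 322 in CK_1. On day 7 the phloem sums were 7.55 to 18.2 FPKM in S_7 and 11.1 to 23.3 in CK_7, with no gene called. The sum of the root markers differed on day 1 too, at 273 to 477 FPKM in S_1, against 483 to 547 in CK_1, with 2 of 26 genes called higher and 1 lower. Of the 18 green shoot markers, 1 was called higher and 3 lower in S_1. The part of cell makeup in the day 1 differences was not tested.

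On day 7, read from S_7 against CK_7, other members differed. LOG4 was again lower, joined by ARR5 and by CKX5 and CKX6, and a histidine kinase of the hybrid type was higher. The 5 calls (10.6% of the 47 members tested, 1 higher and 4 lower) stood beside 5.08% of 27411 genes (2.7% higher and 2.38% lower). LOG4 alone passed an adjusted p of 0.05, as did 1.69% of all genes. With a linear model after Ballgown, LOG4 and the hybrid kinase stayed called and CKX5, CKX6 and ARR5 were lost. The groups did not overlap in 19 members (40.4%), against 26.4% of all genes. Of these 19, 13 were lower (27.7% of members, against 10.9% of all genes) and 6 higher (12.8%, against 15.5%). The median log2 fold change was -0.01 for the members and 0.02 for all genes.

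LOG4 had 0.767, 0.661 and 0.830 FPKM in S_7, against 2.90, 2.86 and 3.06 FPKM in CK_7. Both groups were tight and well apart. The log2 fold change was -1.17 ± 0.16 (SE, adjusted p = 0.0390 in limma) and ranged from -1.20 to -1.13 with 1 library left out, while the adjusted p was then 0.0907 to 0.114. It was 0.162 with all 12 libraries in 1 fit and between 0.0221 and 0.0393 with the other pseudocount, filter and scaling. LOG5 (LOC104903840) and LOG8 (LOC104886610) also lay below their controls without overlap. LOG5 was at 3.502, 4.03 and 2.73 FPKM in S_7, against 6.58, 5.84 and 4.91 FPKM in CK_7 (log2 fold change -0.62 ± 0.19 (SE), adjusted p = 0.170 in limma). LOG8 was at 12.4, 15.6 and 18.2 FPKM in S_7, against 23.2, 23.7 and 27.8 FPKM in CK_7 (log2 fold change -0.67 ± 0.16 (SE), adjusted p = 0.116), and neither met the fold criterion. The 8 LOG genes together summed to 30.6, 35.8 and 43.1 FPKM in S_7, against 46.4, 53.5 and 61.8 in CK_7.

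CKX6 fell to 15.8, 63.0 and 34.3 FPKM in S_7, against 171.7, 87.9 and 104.8 FPKM in CK_7. All salt libraries were below all control libraries, but both groups varied widely. The log2 fold change was -1.81 ± 0.54 (SE, adjusted p = 0.167 in limma), and the call was lost without replicate 1 of CK_7 (-1.53, with P above 0.05). CKX5 fell to 6.69, 4.53 and 5.12 FPKM in S_7, against 26.1, 9.89 and 16.3 FPKM in CK_7. Its log2 fold change of -1.43 ± 0.35 (SE, adjusted p = 0.121 in limma) stayed called without any 1 of the libraries. CKX3 had 1.91, 1.48 and 3.19 FPKM in S_7, against 6.52, 3.74 and 4.86 FPKM in CK_7. It was 0.93 lower on the log2 scale without overlap and became a call without replicate 2 of CK_7 or replicate 3 of S_7. CKX1 (5.998, 5.96 and 4.71 FPKM in S_7, against 5.79, 5.05 and 5.47 in CK_7) and CKX7 overlapped. IPT5, the most abundant synthesis gene, was listed at 5.93, 2.98 and 0 FPKM in S_7, against 1.60, 1.42 and 1.31 in CK_7, so that the salt libraries lay on both sides of the controls. The summed FPKM of the 6 dehydrogenases was 49.5, 92.7 and 60.2 in S_7, against 229.6, 121.8 and 151.7 in CK_7, most of it from CKX6.

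**Figure D2:**
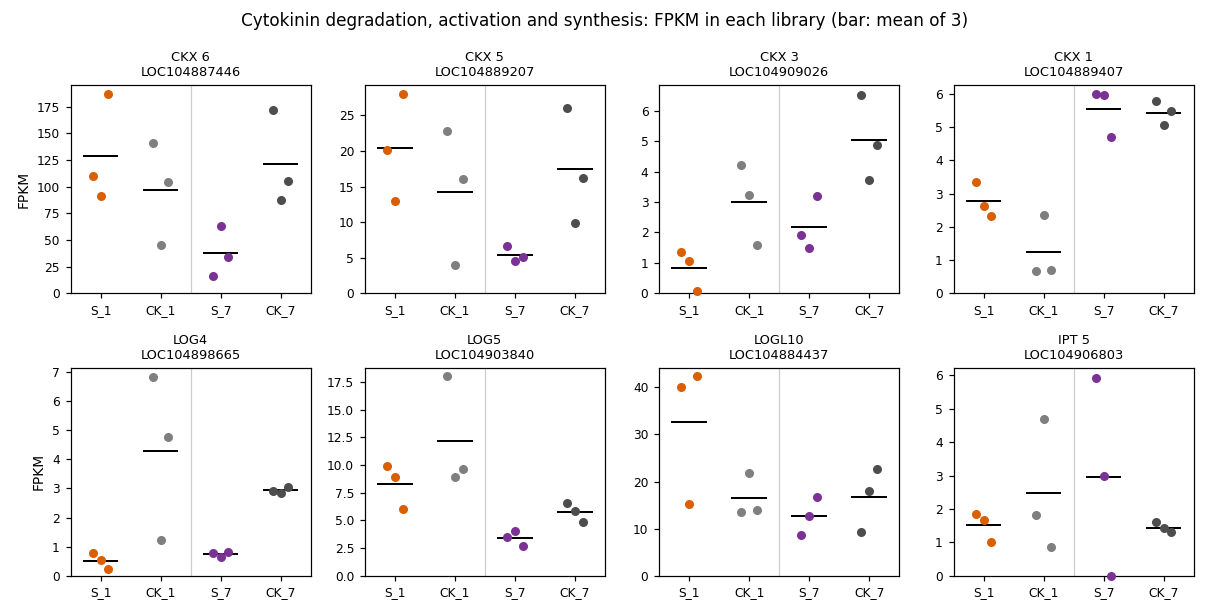
FPKM (linear axis from 0, own scale per panel) of 4 cytokinin dehydrogenases (CKX6, CKX5, CKX3, CKX1), 3 LOG enzymes (LOG4, LOG5, LOGL10) and IPT5 in each library of S_1, CK_1, S_7 and CK_7. Points are libraries and black bars are means of 3. The S_7 points of CKX6 (15.8 to 63.0) and CKX5 (4.53 to 6.69) lie below those of CK_7, while on day 1 the groups overlap for both. LOG4 is below its control on both days.

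ARR5 was the type-A regulator called on day 7. It had 11.2, 24.2 and 25.1 FPKM in S_7, against 55.4, 52.1 and 104.1 FPKM in CK_7, with no overlap. Its log2 fold change was -1.77 ± 0.41 (SE, adjusted p = 0.109 in limma), between -1.96 and -1.41 with 1 library left out. ORR9 (LOC104890973) was at 2.90, 1.76 and 2.65 FPKM in S_7, against 4.90, 3.53 and 6.49 in CK_7, again without overlap and short of the fold criterion (log2 fold change -0.78 ± 0.26 (SE), adjusted p = 0.204). The strongly expressed ORR9 (LOC104887527) was at 25.1, 37.2 and 42.2 FPKM in S_7, against 53.7, 44.5 and 47.5 in CK_7, and its neighbour ORR10 (LOC104887526) at 0.442, 0.543 and 0.494 in S_7, against 0.859, 0.905 and 1.51 in CK_7. Both separated the groups but were short of the fold criterion (log2 fold changes of -0.50 and -0.47). ARR6 overlapped on day 7, at 8.94, 8.33 and 15.8 FPKM in S_7, against 13.4, 5.62 and 10.7 in CK_7. ARR8 overlapped too, at 23.5, 10.9 and 12.1 FPKM in S_7, against 13.5, 15.8 and 14.98 in CK_7. The median log2 fold change of the 8 type-A genes was -0.24, with 5 negative and 3 positive. Their sum was 72.8, 83.7 and 100.2 FPKM in S_7, against 142.3, 122.9 and 186.9 FPKM in CK_7. Of these sums, ARR5 alone gave 11.2, 24.2 and 25.1 FPKM in S_7 and 55.4, 52.1 and 104.1 FPKM in CK_7.

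A hybrid histidine kinase A-like gene (LOC104892548) was the single member called higher on day 7. It was listed at 1.11, 7.65 and 5.97 FPKM in S_7, against 0.669, 0 and 0 in CK_7, at a log2 fold change of 2.08 ± 0.59 (SE, adjusted p = 0.157 in limma). On day 1 it had 6.01, 2.41 and 7.27 FPKM in S_1, against 0, 4.02 and 2.73 in CK_1, which overlapped. The table names it after a kinase of the slime mould Dictyostelium, and its role in plants is not known from the sources used here. A value of 0 may be a failed estimate as well as an absent transcript.

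The signalling steps between receptor and regulator were largely without calls. A phosphotransfer protein 1 gene (LOC104891038) had 6.32, 5.85 and 5.15 FPKM in S_7, against 2.30, 2.40 and 3.37 FPKM in CK_7. Its groups were well apart, but the log2 fold change of 0.88 ± 0.18 (SE, adjusted p = 0.0873 in limma) stayed under the fold criterion. The most abundant phosphotransfer gene (LOC104894012) had 26.0, 24.1 and 23.02 FPKM in S_7, against 28.5, 27.2 and 24.01 in CK_7. ARR2, the main type-B regulator, was at 77.6, 59.9 and 69.2 FPKM in S_7, against 53.8, 53.3 and 51.8 FPKM in CK_7, a log2 fold change of 0.37 ± 0.12 (SE, adjusted p = 0.197) without overlap. Another type-B gene, ARR10 (LOC104906065), had 1.84, 0.915 and 1.85 FPKM in S_7, against 0.691, 0.684 and 0.421 in CK_7, and was likewise apart but uncalled (0.65 ± 0.21 (SE), adjusted p = 0.200). The ARR10-like entry went the other way without overlap, at 4.45, 3.94 and 4.21 FPKM in S_7, against 5.31, 6.24 and 5.76 in CK_7. Its log2 fold change was -0.38 ± 0.13 (SE, adjusted p = 0.217 in limma). Over the 9 type-B regulators the median was 0.03, with 6 positive and 3 negative. Histidine kinase 3 reached 26.8, 24.1 and 21.3 FPKM in S_7, against 22.5, 19.1 and 18.1 in CK_7, and overlapped. Pseudo phosphotransfer protein 6 (LOC104904557), an inhibitor of the relay in Arabidopsis, stayed at or below 0.643 FPKM in every library.

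**Figure D3:**
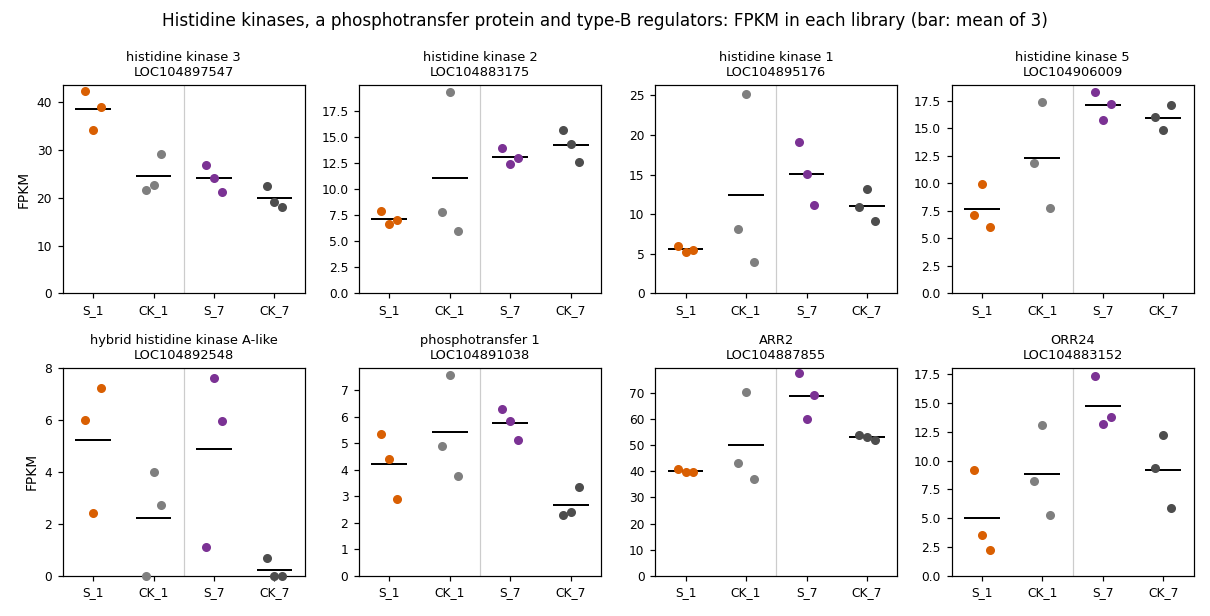
FPKM (linear axis from 0, own scale per panel) of histidine kinases 3, 2, 1 and 5, the hybrid histidine kinase A-like gene, phosphotransfer protein 1 (LOC104891038) and the type-B regulators ARR2 and ORR24 in each library of S_1, CK_1, S_7 and CK_7. Points are libraries and black bars are means of 3. Histidine kinase 3 has its highest values in S_1 (34.3 to 42.3), and replicate 2 of CK_1 is the high control point of histidine kinases 2 and 1.

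Whether the salt effect differed between the days was tested as an interaction over all 12 libraries. No member reached an adjusted p of 0.05 in limma, a level passed by 1.76% of the 28320 genes. At an unadjusted P under 0.05 with a difference past 1, 7 members were found (14.9%), beside 7.21% of all genes. They were ARR6, ARR8, ORR9 (LOC104887524), ORR24 (LOC104883152) and phosphotransfer protein 1 (LOC104891038), for which the day 7 effect was more positive, and CKX5 and CKX6, for which it was more negative. ARR6 was nearest to the threshold, at a difference of 2.46 ± 0.53 (SE, adjusted p = 0.0552), and passed it without replicate 3 of CK_1. The differences of CKX6 (-2.30 ± 0.78, SE) and CKX5 (-2.13 ± 0.79, SE) had adjusted p-values of 0.205 and 0.243. The pattern of calls on 1 day alone is therefore not shown to differ between days for any member by the adjusted test.

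**Figure D4:**
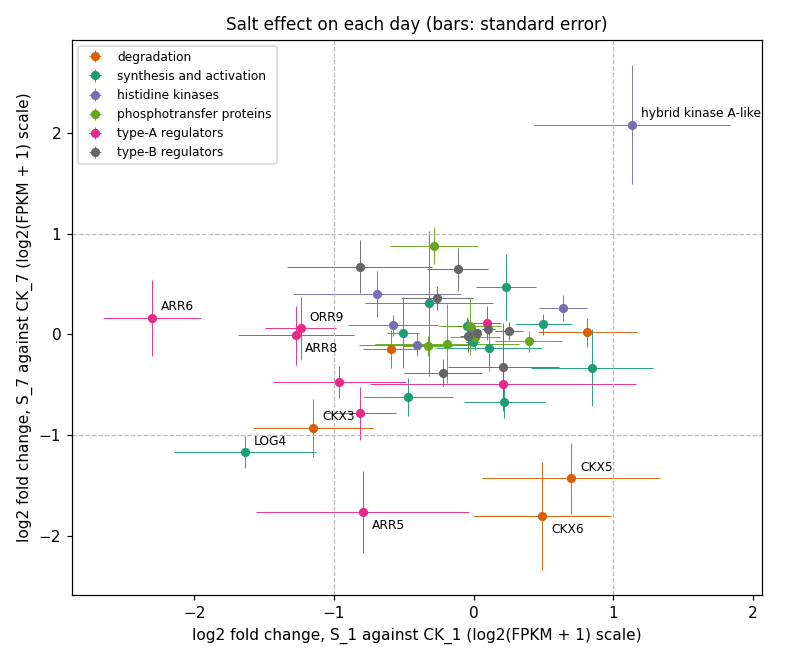
Log2 fold change on the log2(FPKM + 1) scale of S_1 against CK_1 (horizontal axis) and of S_7 against CK_7 (vertical axis) for the 45 members tested on both days, coloured by role. Bars are standard errors and dashed lines mark log2 fold changes of -1 and 1. LOG4 lies beyond -1 on both axes, ARR6 at -2.30 on day 1 only, and CKX5, CKX6 and ARR5 below -1 on day 7 only.

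The change between the days was read within each treatment. These comparisons share their libraries with the salt comparisons, and days, plant age and any difference in harvest or sequencing cannot be told apart. In the controls, CK_7 against CK_1, CKX1 was the 1 member called (2.17% of the 46 tested), beside 10.2% of 27402 genes (6.85% higher and 3.4% lower). CKX1 had 5.79, 5.05 and 5.47 FPKM in CK_7, against 0.681, 2.36 and 0.710 FPKM in CK_1, with no overlap, a log2 fold change of 1.59 ± 0.33 (SE) and an adjusted p of 0.0462 in limma. With 1 library left out the adjusted p ran from 0.0144 to 0.131 and was under 0.05 in 1 case, without replicate 2 of CK_1, and a linear model after Ballgown lost the call. Across the table, 8.13% of genes had an adjusted p under 0.05, and 32.6% did not overlap between CK_7 and CK_1, against 11 members (23.9%). The green shoot markers differed in the same comparison, with 10 of 18 called lower in CK_7, and their part in it was not tested.

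Under salt, S_7 against S_1, 8 members were called (17.8% of the 45 tested, 4 higher and 4 lower), beside 6.78% of 27398 genes (4.11% higher and 2.66% lower). After scaling of the libraries by median ratios, which lowered the median of all genes by 0.175 on the log2 scale, the share of higher calls among all genes was 37%, against 60.7% with the FPKM as deposited, and 7 of the 8 members stayed called. A linear model after Ballgown called none of the 8, and called LOG8 (LOC104907856) in their place. The groups did not overlap in 20 members (44.4%), against 30.6% of all genes. Of these, 14 were higher (31.1%, against 22.6% of all genes) and 6 lower (13.3%, against 8.01%). The green shoot markers differed here as well, with 9 of 18 called lower in S_7, and the markers of dividing cells summed to 378 to 600 FPKM in S_7, against 312 to 352 in S_1. Their part in the result was not tested. ARR6, ARR2 and histidine kinases 1 and 2 had an adjusted p under 0.05, as did 2.66% of all genes.

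ARR6 rose most under salt between the days, to the 8.94, 8.33 and 15.8 FPKM of S_7, against 1.42, 1.75 and 1.57 FPKM in S_1 (log2 fold change 2.17 ± 0.27 (SE), adjusted p = 0.0304 in limma). Its adjusted p was 0.0632 to 0.0844 with 1 library left out. Histidine kinase 1 (LOC104895176), an osmosensor-type kinase in Arabidopsis, had 19.2, 15.02 and 11.2 FPKM in S_7, against 6.02, 5.17 and 5.44 FPKM in S_1. Its log2 fold change of 1.27 ± 0.21 (SE, adjusted p = 0.0486) was 1.02 after median ratio scaling (adjusted p = 0.0583), and the adjusted p was 0.0725 to 0.123 with 1 library left out. The controls, at 10.9, 13.2 and 9.10 FPKM in CK_7 and 8.07, 25.2 and 3.94 FPKM in CK_1, covered the whole range of the salt libraries. Histidine kinase 5 (LOC104906009) had 18.3, 15.8 and 17.2 FPKM in S_7, against 7.14, 9.88 and 6.03 FPKM in S_1. This gave a log2 fold change of 1.08 ± 0.19 (SE, adjusted p = 0.0534) that was under the criterion with median ratio scaling (0.82) and without replicate 3 of S_1 (0.94). The type-B gene ORR24 had 17.3, 13.2 and 13.8 FPKM in S_7, against 9.19, 3.58 and 2.21 FPKM in S_1 (log2 fold change 1.56 ± 0.44 (SE), adjusted p = 0.114).

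ARR2 and histidine kinase 2 passed the adjusted p with smaller changes, short of the fold criterion. The alternative settings were read only for called genes, so it is not known whether these 2 pass under them. Median ratio scaling lowered the median of all genes in this comparison by 0.175. ARR2 had 77.6, 59.9 and 69.2 FPKM in S_7, against 40.8, 39.8 and 39.8 FPKM in S_1 (log2 fold change 0.76 ± 0.13 (SE), adjusted p = 0.0496 in limma). Histidine kinase 2 had 13.95, 12.4 and 13.03 FPKM in S_7, against 7.91, 6.61 and 7.00 FPKM in S_1 (0.79 ± 0.12 (SE), adjusted p = 0.0421). The other receptor, histidine kinase 3, went the opposite way, with 26.8, 24.1 and 21.3 FPKM in S_7, against 42.3, 34.3 and 38.9 FPKM in S_1 (-0.66 ± 0.14 (SE), adjusted p = 0.0693), without meeting the fold criterion.

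The lower calls in S_7 against S_1 were all for enzymes. CKX6 was at 15.8, 63.0 and 34.3 FPKM in S_7, against 109.9, 90.8 and 186.5 FPKM in S_1 (log2 fold change -1.88 ± 0.55 (SE), adjusted p = 0.120 in limma). CKX5 was at 6.69, 4.53 and 5.12 FPKM in S_7, against 20.1, 12.9 and 28.0 FPKM in S_1 (-1.68 ± 0.30 (SE), adjusted p = 0.0553). Both dehydrogenases separated the groups fully. LOG5 had 3.502, 4.03 and 2.73 FPKM in S_7, against 9.90, 8.92 and 6.03 in S_1 (-1.06 ± 0.23 (SE), adjusted p = 0.0750). It fell just short of the fold criterion without S_1 replicate 1 or 2 or S_7 replicate 3 (-0.929, -0.997 and -0.940). LOG5 was also lower in CK_7 than in CK_1 without overlap (-0.91 ± 0.29 (SE), adjusted p = 0.121), and was called there after median ratio scaling. Its interaction was -0.15 ± 0.38 (SE, adjusted p = 0.889), so its drop under salt is not shown to differ from that of the controls. The controls of the other genes called lower overlapped between the days. LOGL10 (LOC104884437) had 8.62, 12.7 and 16.7 FPKM in S_7, against 40.0, 15.2 and 42.5 in S_1. Its groups overlapped through replicate 2 of S_1, and 4 of the 6 fits without 1 library lost the call (S_1 replicates 1 and 3, S_7 replicates 1 and 2, with log2 fold changes of -1.24 to -0.96).

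Genes of the pathway outside the 47 members were read from lists made by description. Cytokinin hydroxylase (CYP735A) turns isopentenyladenine-type cytokinins into trans-zeatin types. Of its 2 genes, both were called lower on day 1 and 1 on day 7, and none passed an adjusted p of 0.05. LOC104888632 had 4.97, 10.7 and 3.07 FPKM in S_1, against 84.4, 13.5 and 60.2 FPKM in CK_1 (log2 fold change -2.69 ± 0.76 (SE), adjusted p = 0.181 in limma). On day 7 it had 1.52, 5.63 and 2.74 FPKM in S_7, against 23.4, 11.8 and 24.5 FPKM in CK_7 (-2.33 ± 0.45 (SE), adjusted p = 0.0781). Its salt libraries were below the control libraries on both days. The other gene, LOC104906111, had 2.41, 1.60 and 4.24 FPKM in S_1, against 7.16, 9.65 and 4.77 FPKM in CK_1 (-1.14 ± 0.37 (SE), adjusted p = 0.224). On day 7 its values were 7.64, 4.62 and 4.999 FPKM in S_7 and 3.63, 3.59 and 4.68 FPKM in CK_7, which overlapped (log2 fold change 0.42).

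None of the remaining lists held a call in either salt comparison. They were 16 cytokinin-type glucosyltransferases, 3 enzymes that prenylate tRNA, 3 adenine phosphoribosyltransferases, 11 purine permeases and nucleotide transporters, 1 ABCG14 exporter, 3 cytokinin response factors, 6 pseudo-response regulators, and 5 ethylene receptors and phytochromes. Their median log2 fold changes lay between -0.37 (cytokinin response factors) and 0.54 (ABCG14, which loads trans-zeatin-type cytokinins into the xylem in Arabidopsis) for S_1 against CK_1, and between -0.15 and 0.32 for the same lists in S_7 against CK_7.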

How the data were processed

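The authors isolated polyadenylated RNA, sequenced read pairs and deposited 1 FPKM value per gene and library for 28320 genes and 12 libraries, so that transcript length and depth were already divided out. The submitters' processing notes name HISAT2 2.0, StringTie 1.3.0 and Bowtie 0.12.2, and the genome build of the table is not given in the sources used here. Depth is therefore known only as the relative estimate above. Conditions were taken from the labels, all columns were used, and no counts were analysed.

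Each comparison was fitted with limma 3.58.1 (R 4.3.3, eBayes with an intensity trend, two-sided) on log2(FPKM + 1), with the 6 libraries of the pair and all genes not at 0 throughout them. The interaction used 12 libraries. A gene was called at an unadjusted P under 0.05 with a log2 fold change above 1 or below -1, and the interaction at an adjusted p under 0.05. The thresholds for the comparisons are from the study's methods, whose P came from Ballgown, and that for the interaction was set here. Adjusted p-values are Benjamini-Hochberg over all genes tested. An exact permutation test of 3 against 3 libraries cannot give a p below 0.1. Members, roles and lists were read from descriptions and were chosen with earlier results of these data known. The genes named are those called in any comparison, the highest of each role, and others added after their values were seen. RefSeq names (EL10.2) matched 42 of the 47 members. The fits were tested on simulated data. Alternatives changed the threshold, pseudocount, low-value filter, scaling, fold change, model (a linear model after Ballgown), libraries fitted, replicate block and each library in turn.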

Additional observations from a re-analysis of the deposited data

How the results depend on the processing

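Of the 208 log2 fold changes of called genes recomputed with a pseudocount of 0.1, genes of at least 1 FPKM, median ratio scaling, all 12 libraries in 1 fit, a replicate block or 1 library left out, none changed direction and 187 stayed called. The 21 lost calls belong to LOGL10, CKX6, ORR9 (LOC104887524), ARR8, LOG4, LOG5, histidine kinase 5 and CKX3. These 208 values do not include the adjusted p, the ratio of mean FPKM or the Ballgown linear model. The Ballgown model kept 4 of 5 calls in S_1 against CK_1 and 2 of 5 in S_7 against CK_7. It kept 0 of 1 in CK_7 against CK_1 and 0 of 8 in S_7 against S_1. The cause of the lost calls was not tested.

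The number of called members moved more. For S_1 against CK_1 (5 members), it was 0 with an adjusted p, 8 with the fold change taken as a ratio of mean FPKM, and 2 to 6 with 1 library left out (2 without S_1 replicate 3 and 3 without CK_1 replicate 1). For S_7 against CK_7 (5), it was 1 with an adjusted p, 2 with the Ballgown linear model (without CKX5, CKX6 and ARR5), 8 with a pseudocount of 0.1, 10 with the ratio, and 4 to 7 with 1 library left out. For CK_7 against CK_1 (1), it was 6 with the Ballgown model, 2 with median ratio scaling, 5 with a pseudocount of 0.1, 7 with the ratio, and 1 to 4 with 1 library left out (4 without CK_1 replicate 2). CKX1 was not among the 6 of the Ballgown model. For S_7 against S_1 (8), it was 2 with an adjusted p, 1 with the Ballgown model (LOC104907856, none of the 8), 13 with the ratio, and 6 to 9 with 1 library left out. For the interaction (0), it was 1 (ARR6) with genes of at least 1 FPKM or a pseudocount of 0.1, 7 with an unadjusted P and a difference past 1, and 0 or 1 with 1 library left out. For CK_7 against CK_1, higher genes were 53.7% of all calls after median ratio scaling, which lowered the median of all genes by 0.125 (log2), against 66.8% of the calls as deposited.

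Replicate numbers did not pair the libraries, since the correlations of same-numbered deviations ran from -0.0938 to 0.102. With the number as a block, 5, 4, 1, 8 and 0 members were called in S_1 against CK_1, S_7 against CK_7, CK_7 against CK_1, S_7 against S_1 and the interaction, and CKX6 on day 7 was the call lost, while the adjusted p of LOG4 on day 7 was 0.217.

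The small number of libraries per group (3) limits what an adjusted p can show, and FPKM values without counts give no counting error for weakly expressed members such as LOC104887524.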

Other observations

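A zeatin O-glucosyltransferase gene (LOC104889580) was listed at 228.8 FPKM in replicate 2 of S_1 and at 159.2 FPKM in replicate 1 of CK_7, and at 0 in the other 10 libraries. These 2 values make up most of the highest sums of the glucosyltransferase list, 281 FPKM in S_1 and 297 FPKM in CK_7.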
